A study of Mus musculus with 8 samples.

Results

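The 10 genes described here encode helix-loop-helix repressors of the HES, HEY and ID families, best known as targets of Notch and BMP signals: Hes1, Hes5, Hes6, Hey1, Hey2, Heyl, Id1, Id2, Id3 and Id4. They were chosen by name, and all 15 non-control probes that the array assigns to them were used, of 41174 probes in all. Every one of these probes was well above background on 8 of 8 arrays, and the 10 genes were read from a fit over 19298 genes and unnamed transcripts. The tissue was the pancreatic epithelium of mouse embryos at e15.5, from the dorsal and the ventral pancreas, taken by hand dissection. The 4 Sox9 mutant pools came from Sox9fl/fl; Rosa26-CreER embryos and the 4 wild-type pools from Rosa26-CreER littermates without the floxed alleles. Both genotypes carried Rosa26-CreER, which is active in most cell types and so not restricted to the epithelium, and the dams of both received tamoxifen (6 mg per 40 g) at e12.5. The floxed line was on a mixed FVB/N, C57Bl/6J and CD1 background and the Cre line on C57Bl/6J. Each pool held 4 pancreata and was hybridised to its own one-colour array, so p-values measure the spread between pools and not between single embryos.

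HES and HEY proteins are transcriptional repressors with a basic helix-loop-helix domain. They are the best known direct targets of the Notch pathway and act with Groucho/TLE corepressors. In the pancreas HES1 represses Neurog3, the gene of the factor that starts the endocrine programme, and so keeps Notch-receiving cells in the progenitor state. ID proteins lack the basic region that contacts DNA. They bind E proteins and so deprive tissue-specific activators of their partners, and BMP signals acting through SMADs are known inducers of Id1, Id2 and Id3.

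RefSeq promoter windows on GRCm38.p6 were available for 6 of the 10 genes: Hes5, Hes6 with 2 windows, Hey2, Id2, Id3 and Id4. The 250 bases before the start site were searched on both strands for GTGGGAA, the core of the site bound by the Notch effector RBPJ, for CACNAG, the N box that HES factors bind, and for ACAAAG and ACAATG, forms of the core that SOX factors bind. No match in the printed windows overlapped another. Of 32851 such windows in the mouse table, 5.42% held GTGGGAA, 36.7% held CACNAG, 16.5% held ACAAAG and 10.7% held ACAATG. The 4 windows below are Id4, Hes5, Hey2 and Neurog3. Id4 and Neurog3, the target of HES1, were lower in mutants. Hes5 was not called in the reported fit but was called in some others. Hey2 was, besides Hes5, the other gene with an RBPJ core among the 6 with a window. Capitals mark the motif matches, on either strand.
Id4, chr13:48260866-48261115 (plus strand): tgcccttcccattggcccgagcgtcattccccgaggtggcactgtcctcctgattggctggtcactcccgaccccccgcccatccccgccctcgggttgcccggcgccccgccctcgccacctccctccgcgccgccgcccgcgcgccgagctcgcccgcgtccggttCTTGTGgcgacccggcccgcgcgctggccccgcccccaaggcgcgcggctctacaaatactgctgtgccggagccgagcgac
Hes5, chr4:154960673-154960922 (plus strand): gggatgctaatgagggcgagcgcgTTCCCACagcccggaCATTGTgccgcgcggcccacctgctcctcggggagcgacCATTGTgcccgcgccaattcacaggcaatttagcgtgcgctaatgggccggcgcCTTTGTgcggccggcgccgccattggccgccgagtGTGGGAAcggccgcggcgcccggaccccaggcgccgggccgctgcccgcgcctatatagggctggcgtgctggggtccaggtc
Hey2, chr10:30842784-30843033 (minus strand): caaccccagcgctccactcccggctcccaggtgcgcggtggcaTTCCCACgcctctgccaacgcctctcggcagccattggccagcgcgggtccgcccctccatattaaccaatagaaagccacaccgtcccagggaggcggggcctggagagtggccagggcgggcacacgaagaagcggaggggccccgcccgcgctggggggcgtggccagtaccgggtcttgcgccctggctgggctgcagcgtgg
Neurog3, chr10:62132840-62133089 (plus strand): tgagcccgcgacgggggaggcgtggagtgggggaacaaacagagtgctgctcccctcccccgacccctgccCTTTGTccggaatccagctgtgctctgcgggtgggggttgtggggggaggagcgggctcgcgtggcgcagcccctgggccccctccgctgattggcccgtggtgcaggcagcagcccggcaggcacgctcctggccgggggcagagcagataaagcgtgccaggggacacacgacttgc
The Hes5 window held 2 copies of the RBPJ core in opposite orientations, 226 to 220 and 83 to 77 bases before the start, and it also held 1 ACAAAG and 2 ACAATG matches. The Hey2 window held 1 RBPJ core, 207 to 201 bases before the start, and no SOX core. The Id4 window held 1 N box, 82 to 77 bases before the start, and neither an RBPJ nor a SOX core. The Neurog3 window held 1 ACAAAG match, 179 to 174 bases before the start, and no N box within these 250 bases. Each Hes6 window held ACAAAG and 1 of them an N box, and the Id2 and Id3 windows held none of the 4 motifs. These matches are letters in a window and not measured binding. Other sequences that these factors may bind were not searched for, so a window without a match may still hold such a site.

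Before the results, the arrays and the targeted gene were checked. The array of mutant replicate 2 stood apart, with a median processed signal of 755.9 scanner units (219.2 to 271.8 elsewhere) and 85.92% of probes well above background (68.96% to 73.43% elsewhere). Across features, which are not independent replicates, it had a median Pearson r of 0.9235 with its own genotype, and the other 7 arrays had 0.9935 to 0.9956 with theirs. Results that rest on this pool are therefore given with and without it. All mutant arrays lay on one slide and scan and all wild-type arrays on another, so slide and genotype cannot be told apart. The main Sox9 probe had log2 levels of 0.52, 0.34, 0.45 and 0.40 in mutants, against 1.68, 1.82, 1.78 and 1.68 in wild type, a log2 fold change of -1.32 (adjusted p = 0.000803). A second Sox9 probe gave -2.50 and another, dimmer one 0.65 (95% interval -0.26 to 1.55). The dimmer probe read -2.38, -0.63, -2.19 and -2.2 in mutants, against -2.44, -2.35, -2.37 and -2.82 in wild type. Its value thus rests largely on mutant replicate 2, and a fold change without that pool is not given here. Whether the probes lie in the floxed part is not given in the sources used here.

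Of the 10 genes, Hes1 was higher and Id4 lower in Sox9 mutants, and the other 8 did not pass the test. Hes1 reached 1.46-fold its wild-type signal, and Id4 fell 1.48-fold, to 67.7% of it. The test was one limma fit of genotype over all 19298 features with Benjamini-Hochberg adjustment, which called 1057 of them (5.48%) at an adjusted p under 0.05. It called 2.22% higher and 3.25% lower, beside which stand 1 of the 10 genes higher and 1 lower. In those 2 genes the 4 mutant values did not overlap the 4 wild-type values, as was true of 25.6% of all features (11.4% with the mutants above and 14.2% with the mutants below). The median log2 fold change of the 10 genes was -0.13 and that of all features 0.01. The median absolute log2 fold change was 0.14 for the 10 genes, 0.21 for all features and 0.67 for the called features. Without mutant replicate 2 it was 0.18 for the 10 genes and 0.16 for all features, so the order turned.

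**Figure D1:**
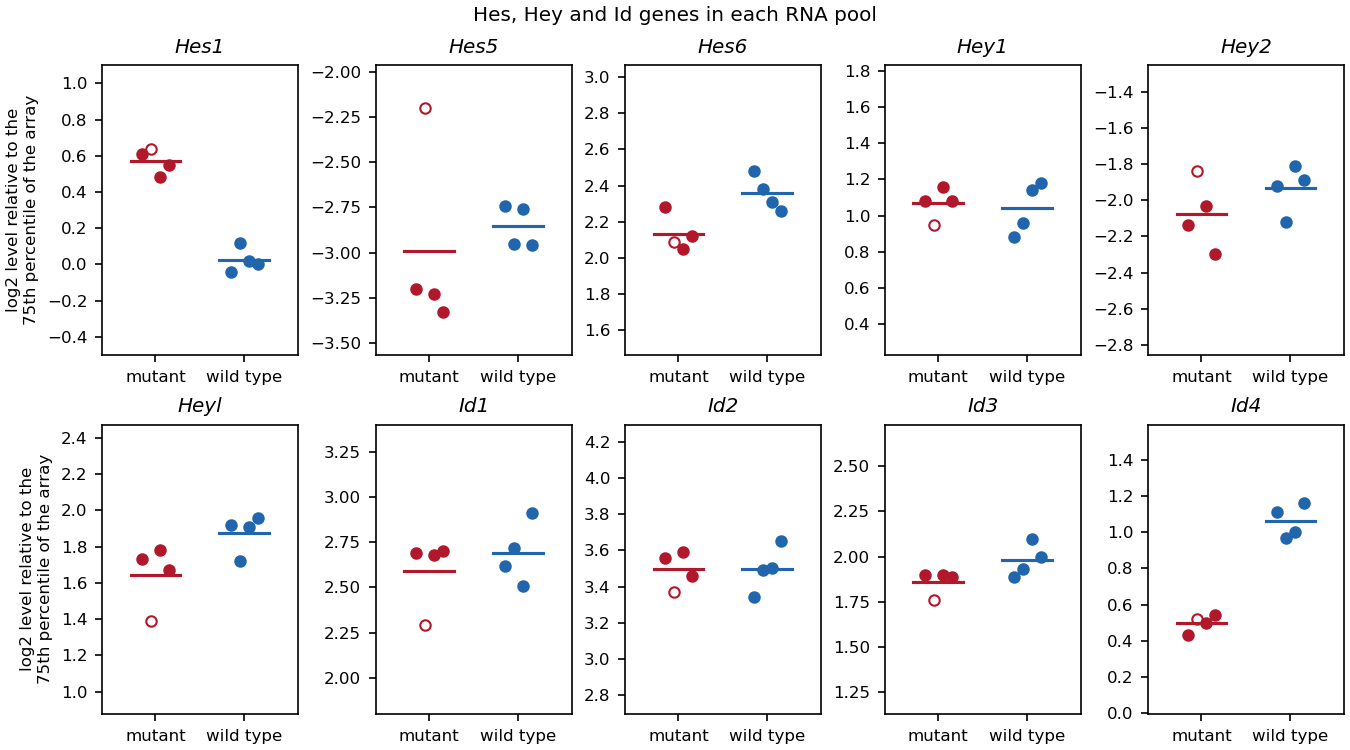
Levels of the 10 genes in each pool, as log2 processed signal relative to that array's 75th percentile. Sox9 mutants are red and stand left of wild type in blue, bars are means of 4 pools, the open circle is mutant replicate 2, and every panel spans 1.6 log2 units with its own offset. Hes1 is separated upward (0.48 to 0.64 in mutants, against -0.04 to 0.12 in wild type) and Id4 downward (0.43 to 0.54 in mutants, against 0.97 to 1.16 in wild type), while in the other 8 panels the genotypes overlap.

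Hes1, the main HES repressor of pancreatic progenitors, was measured by 1 probe (A_51_P498093, mm8 chromosome 16, 29985644 to 29985939, plus strand). All levels are log2 processed signal minus the 75th percentile of the same array, so that 0 is the 75th percentile and levels of different probes are not compared. Hes1 stood at 0.61, 0.64, 0.48 and 0.55 in the mutant pools, against -0.04, 0.12, 0.02 and 0.00 in the wild-type pools. Every mutant pool was above every wild-type pool, mutant replicate 2 included. The means were 0.57 ± 0.07 in mutants and 0.03 ± 0.07 in wild type (SD, n = 4 pools each). This is a log2 fold change of 0.54 (SE 0.07) with a 95% interval of 0.39 to 0.70 and an adjusted p of 0.00687 (limma), which placed Hes1 at rank 146 of 19298 by p. Leaving out each array in turn kept the call in 8 of 8 fits, with values between 0.52 and 0.58 and adjusted p between 0.0035 and 0.0332. The call was lost with normexp background correction (0.51, adjusted p = 0.068) and with arrays centred on their median (0.16, adjusted p = 0.758). Median centring moved the median of all features to -0.38, relative to which Hes1 was at 0.54, and without mutant replicate 2 it gave 0.49 (adjusted p = 0.00507), a check added after seeing the data.

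The 3 named genes whose levels followed Hes1 most closely over the 8 arrays were Med15 (Pearson r = 0.9895), a subunit of the Mediator complex, Niban2 (r = 0.9864) and 8430419K02Rik (r = 0.9862). Med15 averaged 0.18 in mutants and -0.07 in wild type, Niban2 1.01 in mutants and 0.72 in wild type, and 8430419K02Rik -3.12 in mutants and -4.25 in wild type on the log2 level scale. All 3 were called higher in mutants, with log2 fold changes of 0.26, 0.29 and 1.13. These correlations are descriptions over 2 genotypes of 4 arrays each, and a difference between genotypes alone gives a high value.

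Id4, the ID family member best known from neural precursors and mammary epithelium, was measured by 2 probes whose starts lie 512 bases apart (mm8 chromosome 13, 48275236 to 48275295 and 48275748 to 48275807, plus strand). The brighter probe, A_52_P449871, gave 0.43, 0.52, 0.50 and 0.54 in mutants, against 1.11, 0.97, 1.0 and 1.16 in wild type. The highest mutant pool lay below the lowest wild-type pool. The means were 0.50 ± 0.05 in mutants and 1.06 ± 0.09 in wild type (SD, n = 4 each). This is a log2 fold change of -0.56 (SE 0.07) with a 95% interval of -0.72 to -0.41 and an adjusted p of 0.00657 (limma), at rank 123 by p. Leaving out each array in turn kept the call in 8 of 8 fits, between -0.59 and -0.53 with adjusted p between 0.00323 and 0.0299. As for Hes1, normexp (-0.50, adjusted p = 0.116) and median centring (-0.95, adjusted p = 0.402) ended it. Relative to the shifted median of all features the median-centred value was -0.57, and without mutant replicate 2 it was -0.60 (adjusted p = 0.00497).

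The dimmer Id4 probe, A_51_P494430, showed nearly the same difference. It gave -1.26, -1.04, -1.28 and -1.11 in mutants, against -0.47, -0.67, -0.75 and -0.62 in wild type, again without overlap. In a second limma fit over 29462 probes it changed by -0.55 on the log2 scale (SE 0.09, adjusted p = 0.0233), and the brighter probe kept its call (adjusted p = 0.0094). That fit called 1148 probes (3.9%), with 1.74% higher and 2.15% lower, and 3 of the 15 probes described here, 1 of Hes1 higher and 2 of Id4 lower. The call of the dimmer probe was made in 1 of 8 fits with an array left out, the one without mutant replicate 2 (-0.59, adjusted p = 0.00684), and the 8 fits ranged from -0.59 to -0.49 with adjusted p up to 0.0768.

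**Figure D2:**
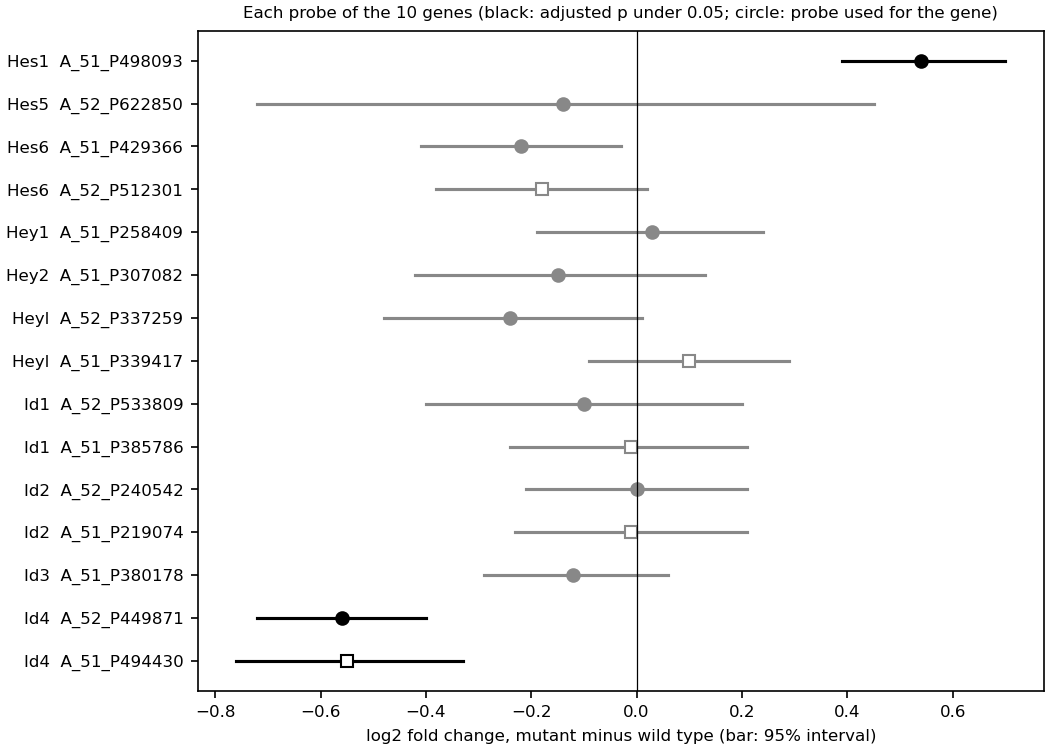
Log2 fold change of each of the 15 probes, Sox9 mutant minus wild type, with 95% intervals from the fit over all probes. Circles are the probes that stand for their gene, squares the second probes, and black marks an adjusted p under 0.05. The Hes1 probe (0.54) and both Id4 probes (-0.56 and -0.55) lie clear of 0, and the 2 Heyl probes lie on opposite sides of it (-0.24 and 0.10).

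Among the other HES genes, the result for Hes5, a Notch target prominent in neural progenitors, depended on 1 pool and on the processing. Its probe (A_52_P622850) read -3.20, -2.20, -3.23 and -3.33 in mutants, against -2.74, -2.95, -2.76 and -2.96 in wild type. Mutant replicate 2 was higher than every other pool, and the other 3 mutant pools were lower than every wild-type pool. With all arrays the log2 fold change was -0.14 (95% interval -0.72 to 0.44, adjusted p = 0.733). Without mutant replicate 2 it was -0.40 with an adjusted p of 0.0179, in a fit that called 3 of the 10 genes (Hes1 higher, Hes5 and Id4 lower) beside 17.3% of all features (7.19% higher and 10.1% lower). It was also called when arrays were weighted by their quality (-0.40, adjusted p = 0.0145) and in the authors' deposited table refitted the same way (-0.34, adjusted p = 0.031). The weight of mutant replicate 2 was 0.0543, against 0.60 to 2.57 for the other arrays.

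Hes6, an atypical family member that antagonises HES1 in neural progenitors and is itself induced by proneural factors, had 2 probes of the same direction. Its brighter probe read 2.28, 2.09, 2.05 and 2.12 in mutants, against 2.48, 2.38, 2.31 and 2.26 in wild type. The genotypes overlapped only through mutant replicate 1 and wild-type replicate 4. The log2 fold change was -0.22 (95% interval -0.41 to -0.04), with an unadjusted p of 0.0244, a level reached by 25.3% of all features, and an adjusted p of 0.14. The second probe, 1044 bases away, gave -0.18 (95% interval -0.38 to 0.02). Of the settings tried, array weights alone called Hes6 (-0.24, adjusted p = 0.0348).

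The HEY genes, which mediate Notch signals in vessels, heart and smooth muscle, did not pass the test. Hey1 averaged 1.07 ± 0.09 in mutants and 1.04 ± 0.14 in wild type, a log2 fold change of 0.03 with a 95% interval of -0.18 to 0.24. Hey2 averaged -2.08 ± 0.19 in mutants and -1.93 ± 0.13 in wild type, a log2 fold change of -0.15 (-0.42 to 0.13). Heyl averaged 1.64 ± 0.17 in mutants and 1.88 ± 0.11 in wild type with its brighter probe, a log2 fold change of -0.24 (-0.48 to 0.01). The 2 Heyl probes, 1487 bases apart, disagreed in direction: the brighter read 1.73, 1.39, 1.78 and 1.67 in mutants, against 1.92, 1.72, 1.91 and 1.96 in wild type, and the dimmer 0.15, 0.29, 0.16 and 0.06 in mutants, against 0.08, 0.03, 0.20 and -0.03 in wild type. Neither was called (adjusted p = 0.229 and 0.456 in the fit over probes), so no direction is given for Heyl.

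Id1, Id2 and Id3, the BMP-responsive members, differed little between genotypes, and none was called. Id1 averaged 2.59 ± 0.20 in mutants and 2.69 ± 0.17 in wild type, with a log2 fold change of -0.10 (95% interval -0.39 to 0.20). Id2 averaged 3.50 ± 0.10 in mutants and 3.50 ± 0.13 in wild type, with a log2 fold change of 0.00 (-0.20 to 0.20). Id3 averaged 1.86 ± 0.07 in mutants and 1.98 ± 0.10 in wild type, with a log2 fold change of -0.12 (-0.28 to 0.05). The second probes of Id1, 10 bases away and so largely the same sequence, and of Id2, 1279 bases away, gave -0.01 each. In Id1 and Id3 mutant replicate 2 was the lowest of the mutant pools, at 2.29 and 1.76, where the other 3 lay between 2.68 and 2.70 and between 1.89 and 1.90. Without it the log2 fold changes were 0.00 for Id1, 0.04 for Id2 and -0.08 for Id3, still not called. Id4 was thus the only ID gene of the 4 to pass the test, and a difference between its change and that of the other ID genes was not tested.

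**Figure D3:**
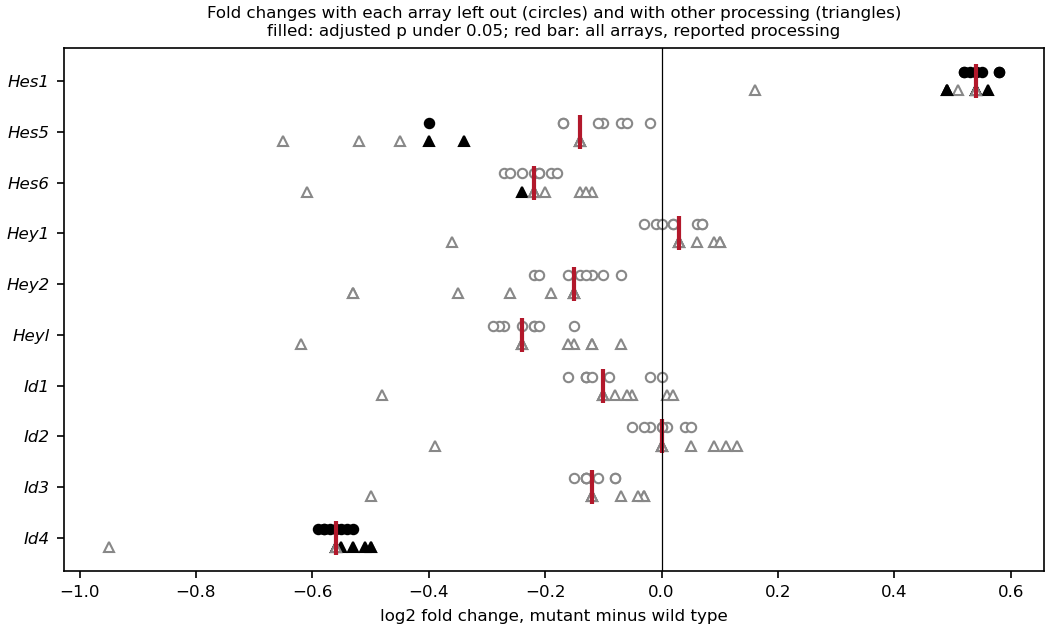
Log2 fold change of each gene, Sox9 mutant minus wild type, in the reported fit (red bar), with each of the 8 arrays left out (circles) and with 9 other processing settings (triangles), filled where the adjusted p was under 0.05. Circles of Hes1 and Id4 are all filled and lie within 0.52 to 0.58 and -0.59 to -0.53. The leftmost triangle of most genes is centring on the array median, which lowers all features, and the filled circle of Hes5 at -0.40 is the fit without mutant replicate 2.

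The partners and signals of these repressors were read from the same fit. The 20 tissue-specific bHLH factors tested include activators that HES and ID proteins hold back. In the limma fit none of the 20 was higher and 3 were lower in mutants, beside 2.22% and 3.25% of all features. Without mutant replicate 2 the counts were 1 higher (Twist1, 0.53) and 6 lower, beside 7.19% and 10.1% of all features. At an unadjusted p under 0.05, 0 were higher and 7 lower, a level reached by 25.3% of all features in either direction. The median log2 fold change of the 20 was -0.28. Neurog3 read -0.89, -0.80, -0.66 and -1.33 in mutants, against 0.99, 1.07, 1.0 and 0.78 in wild type. It fell to 27.3% of wild type (log2 fold change -1.88, SE 0.15, adjusted p = 0.00238) and kept its call in 8 of 8 fits with an array left out and in 9 of 9 other settings. Neurod2, a neuronal differentiation factor, averaged -3.38 ± 0.32 in mutants and -1.81 ± 0.08 in wild type (-1.57, adjusted p = 0.00436). Its call was lost with normexp (adjusted p = 0.059), median centring (0.0713), quantile normalization (0.159) and the mean of all its probes (-0.95, adjusted p = 0.189). Ascl2, a factor of trophoblast and intestinal stem cells, averaged -4.07 ± 0.37 in mutants and -2.97 ± 0.21 in wild type (-1.10, adjusted p = 0.0255), and its adjusted p was between 0.00257 and 0.0862 over the left-out arrays, under the threshold in 2 of 8 fits, those without mutant replicate 2 and without wild-type replicate 4 (0.0435). Normexp, median centring, quantile normalization and testing without the filter on dim probes also ended it (adjusted p 0.0606 to 0.604).

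Other activators that pair with E proteins in the pancreas were not called. Neurod1, which acts directly after Neurog3 in endocrine cells, gave -2.96, -4.74, -2.80 and -2.92 in mutants, against -1.88, -1.71, -1.67 and -1.83 in wild type. The mutants were all lower, but the log2 fold change of -1.58 had an adjusted p of 0.0761, and its probe was well above background on 3 of 4 mutant arrays. Without mutant replicate 2 it was -1.12 with an adjusted p of 0.000681. Ptf1a, the acinar and early progenitor factor, had -0.31 (adjusted p = 0.196). None of the 3 E proteins, the common partners, was called by limma or reached an unadjusted p under 0.05 (0 of 3): Tcf3 had -0.03, Tcf12 0.09 and Tcf4 0.18, of which Tcf4 passed without mutant replicate 2 (0.24, adjusted p = 0.0451), with array weights (0.22, adjusted p = 0.0225) and in the authors' deposited table (0.23, adjusted p = 0.0489), and turned to -0.21 with median centring.

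Of 33 Notch ligands, receptors and machinery genes tested, limma called none higher and 3 lower, with and without mutant replicate 2, and their median log2 fold change was -0.01. Of all features, 2.22% were called higher and 3.25% lower, and 7.19% and 10.1% without that pool. At an unadjusted p under 0.05, 2 of the 33 genes were higher and 4 lower, where 25.3% of all features reached that level. Dtx4, a Deltex ubiquitin ligase, averaged 1.71 ± 0.12 in mutants and 2.21 ± 0.10 in wild type (-0.50, adjusted p = 0.0219). Mfng, a Fringe glycosyltransferase that modifies Notch receptors, averaged 0.04 ± 0.05 in mutants and 0.36 ± 0.05 in wild type (-0.32, adjusted p = 0.0241). Dll3, a divergent ligand that inhibits Notch in the same cell, averaged -3.94 ± 0.57 in mutants and -2.51 ± 0.09 in wild type (-1.44, adjusted p = 0.0274), with 3 of 4 mutant arrays well above background. These calls were near the threshold: over the 8 fits with an array left out, Dtx4 and Mfng passed in 1, that without mutant replicate 2, and Dll3 in 2, those without mutant replicate 2 or 3, with adjusted p up to 0.0768, 0.0819 and 0.0898. All 3 calls were also lost with normexp, with median centring and without the filter on dim probes, and that of Dll3 with quantile normalization.

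The core of the pathway did not pass. The receptor genes Notch1 and Notch2 had log2 fold changes of 0.26 (adjusted p = 0.163) and 0.11 (adjusted p = 0.485). The ligand genes Dll1 and Jag1 had -0.24 (adjusted p = 0.374) and -0.20 (adjusted p = 0.334). Rbpj, which encodes the DNA-binding effector, had -0.23 (adjusted p = 0.287).

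Of 31 BMP pathway genes tested, 1 was higher and 1 lower, with a median log2 fold change of 0.04. Without mutant replicate 2, 3 were higher and 2 lower. The shares of all features were 2.22% higher and 3.25% lower, and 7.19% and 10.1% without that pool. At an unadjusted p under 0.05, 4 of the 31 were higher and 6 lower, beside 25.3% of all features. Smad7, an inhibitory SMAD, read -0.54, -0.47, -0.50 and -0.45 in mutants, against -1.05, -0.93, -0.89 and -0.93 in wild type. It rose by 0.46 on the log2 scale (SE 0.06, adjusted p = 0.00864), and it was called in 8 of 8 fits with an array left out. The call was lost with normexp (0.34, adjusted p = 0.415) and with median centring (0.07, adjusted p = 0.891). Cer1, a secreted antagonist of BMP and Nodal, averaged -5.82 ± 0.77 in mutants and -3.30 ± 0.31 in wild type (-2.52, adjusted p = 0.0139), with 3 of 4 mutant arrays well above background and the call made in 6 of 8 such fits. It was lost without wild-type replicate 1 (adjusted p = 0.0532) and without wild-type replicate 2 (adjusted p = 0.0507), and also with normexp (-1.72, adjusted p = 0.215), median centring (-2.90, adjusted p = 0.0713) and quantile normalization (-2.86, adjusted p = 0.0913). Bmp2, a BMP ligand, lay above wild type in every mutant pool but did not pass (1.30, adjusted p = 0.0704), and without mutant replicate 2 it passed (0.94, adjusted p = 0.00108). Bmp4 (0.06), Bmp7 (-0.23), the signal transducer Smad1 (-0.11) and the inhibitory Smad6 (0.08) were not called.

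None of 6 Groucho/TLE corepressor genes was called by limma, with or without mutant replicate 2. The 2 that reached an unadjusted p under 0.05 were Tle3 (-0.16, adjusted p = 0.17) and Tle4 (-0.23, adjusted p = 0.19). None of 4 further HES-related repressors was called with all arrays and 1 reached an unadjusted p under 0.05, with Hes2 at -0.44 (adjusted p = 0.147) and Bhlhe41 at 1.54 (adjusted p = 0.374). The Bhlhe41 value rested on mutant replicate 2, which read -0.99 where the other 3 mutant pools read -5.59 to -5.30 and the wild-type pools -6.49 to -5.56. Without that pool Bhlhe41 had 0.42, and Hes2 was called lower (-0.55, adjusted p = 0.0392). Hes7 was also called lower without it (-0.42, adjusted p = 0.0461) but had 0.07 with all arrays (adjusted p = 0.935). Hes7 was chosen after its value was seen.

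**Figure D4:**
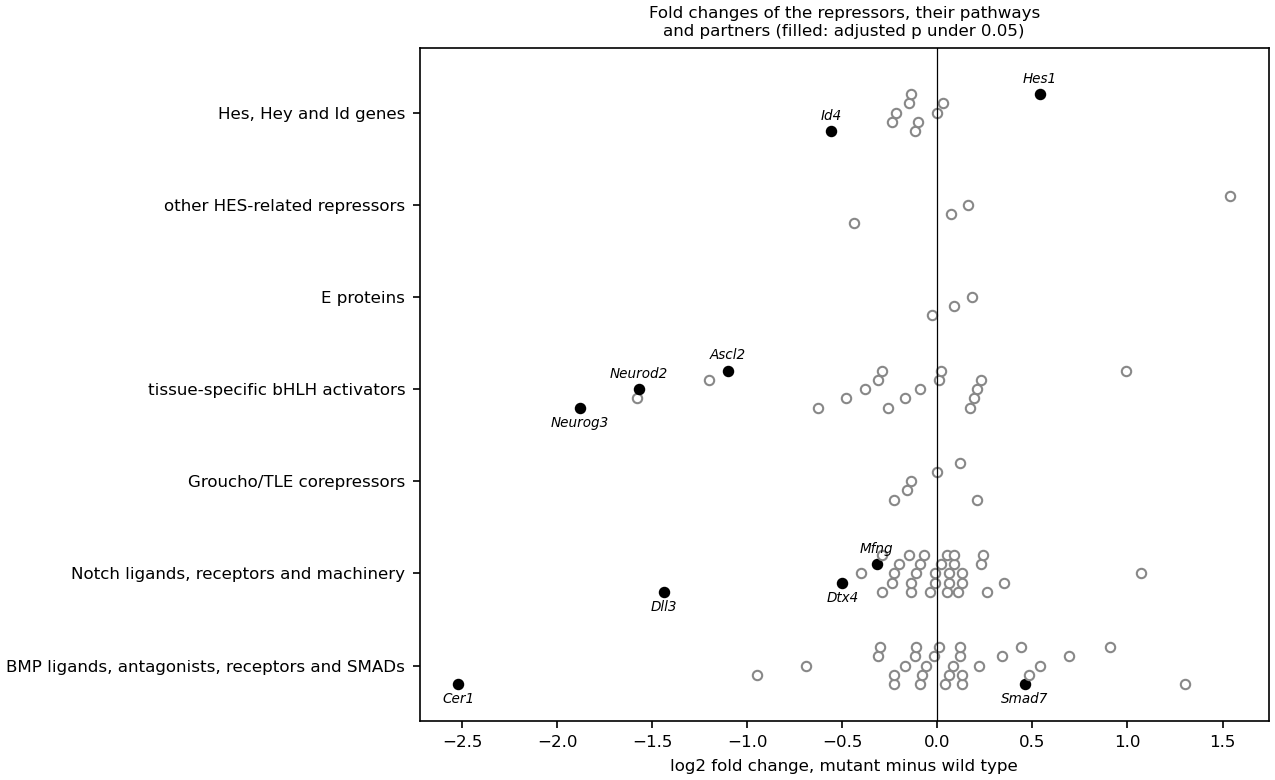
Log2 fold change, Sox9 mutant minus wild type, of each tested gene by list, filled and named where the adjusted p was under 0.05. Points are spread vertically only to be visible. The 10 repressors lie between -0.56 and 0.54, and the largest falls among the listed genes are those of Cer1 (-2.52) and Neurog3 (-1.88).

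The RNA came from whole dissected epithelia, in which fewer cells of a type and less RNA per cell cannot be told apart, and several of the 10 genes are used by more than 1 cell type. Markers of mesenchyme and of endothelium had mean levels above the 75th percentile of the array in both genotypes, so RNA of such genes was present in the pools. Counts of called marker genes stand beside 2.22% of all features called higher and 3.25% lower. Those shares were 7.19% and 10.1% without mutant replicate 2, and 25.3% reached an unadjusted p under 0.05 with all arrays. The endothelial list, whose cell type expresses HEY and ID genes, averaged 1.53 ± 0.10 in mutants and 1.5 ± 0.07 in wild type over 12 genes (exact two-sided permutation p = 0.657, adjusted over 10 lists 0.73), and limma called none of its genes (0 at an unadjusted p under 0.05). The endothelial gene Emcn was called higher without mutant replicate 2 (0.20, adjusted p = 0.0444), where the mean difference was 0.07, against 0.03 with all arrays. The mesenchyme list averaged 2.40 ± 0.04 in mutants and 2.40 ± 0.08 in wild type, with 2 of 10 genes higher, Nkx3-2 (0.58) and Barx1 (0.28). The smooth muscle and pericyte list averaged 1.59 ± 0.06 in mutants and 1.73 ± 0.13 in wild type, with 1 of 8 genes lower, the pericyte gene Rgs5 (-0.74). Lum in the mesenchyme list (-0.35) was also called lower, and Des in the smooth muscle list (0.24) higher, without mutant replicate 2.

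Id4, Hes5 and Hes6 are known from cells of the neural lineages, though expression by cell type was not measured here. The neuron and Schwann cell list had 2 of 10 genes lower, Sox10 (-1.04) and S100b (-1.62), which mark Schwann cells, and none higher. At an unadjusted p under 0.05, 6 were lower and 0 higher. Its mean was -2.0 ± 0.59 in mutants and -1.51 ± 0.26 in wild type (exact p = 0.2, adjusted 0.327), a difference of -0.49 that was -0.75 without mutant replicate 2, where Foxd3 was also called lower. On the linear scale, in units of the 75th percentile, its summed signal was 3.32 to 5.39 in mutants and 6.09 to 8.91 in wild type, without overlap. The endocrine list, whose progenitors express Hes6, had 3 of 8 genes lower (Neurog3, Isl1 and Chgb) and none higher, and 7 lower both without mutant replicate 2 and at an unadjusted p under 0.05. The remaining gene, Gcg, went the other way in limma, with 0.24 (adjusted p = 0.44) and, without that pool, 0.41 (adjusted p = 0.0561). The mean of the endocrine list was 2.12 ± 0.59 in mutants and 3.21 ± 0.10 in wild type, with an exact p of 0.0286, the smallest that 4 against 4 pools allow, and 0.285 after adjustment. The summed signal of that list was 66.8 to 171 in mutants and 183 to 237 in wild type. That sum follows the brightest genes most. Among them Ins2 averaged 4.94 in mutants and 6.38 in wild type, and Gcg 5.75 in mutants and 5.52 in wild type. The part of either list in the values of Id4, Hes5 and Hes6 was not tested.

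The remaining lists complete the check. The duct and trunk list, the cells in which Hes1 and Sox9 are both expressed, averaged 1.19 ± 0.14 in mutants and 1.09 ± 0.06 in wild type, with Sox9 and Spp1 (-1.13) lower and Onecut1 (0.96) higher of 8 genes. Its summed linear signal ran the other way, at 47.2 to 59.1 in mutants and 80.3 to 89.6 in wild type, without overlap. That sum follows Spp1 most, the gene of the list with the highest signal (4.71 ± 0.17 in mutants, 5.83 ± 0.12 in wild type). It is no measure of the list as a whole, whose median log2 fold change was 0.02. The mean difference without mutant replicate 2 was 0.03, against 0.10 with all arrays, and Cftr (1.47) and Krt19 (0.48) were also called higher. The epithelial list averaged 3.70 ± 0.13 in mutants and 3.57 ± 0.04 in wild type and the acinar list 4.87 ± 0.23 in mutants and 4.96 ± 0.08 in wild type, with no gene of either called by limma. The epithelial list had 2 genes higher and 1 lower, and the acinar list 2 lower, at an unadjusted p under 0.05. Without mutant replicate 2, 3 epithelial genes were called higher, Krt19 (adjusted p = 0.0061), Krt8 (0.0125) and Krt18 (0.03), and 1 acinar gene lower, Bhlha15 (0.0207). Of the 7 erythroid genes, Hbb-y (1.68) and Hba-x (1.43) were higher, and 6 were measured on every array. Those 6 averaged -0.95 ± 0.76 in mutants and -1.81 ± 0.29 in wild type (exact p = 0.0571, adjusted 0.285). Their summed signal was 4.67 to 11.4 in mutants and 2.55 to 4.29 in wild type. The mean and sum leave out Hba-a1, which lacked a value in mutant replicate 1 and had the highest signal of the list. It read 5.03, 4.86 and 4.77 in mutant replicates 2 to 4, against 5.63, 5.2, 4.65 and 5.21 in wild type. Its log2 fold change was -0.29 (adjusted p = 0.44), so the separation of the sums does not describe the whole list. For the 6 genes the mean difference without mutant replicate 2 was 0.50, against 0.86 with all arrays. The median log2 fold change of the 7 was -0.07 without it, against 0.84. The myeloid and lymphoid list averaged -0.91 ± 0.09 in mutants and -0.81 ± 0.11 in wild type, with Fcgr3 (-0.71) lower of 8 genes. The part of these lists in the Hes1 value was not tested.

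**Figure D5:**
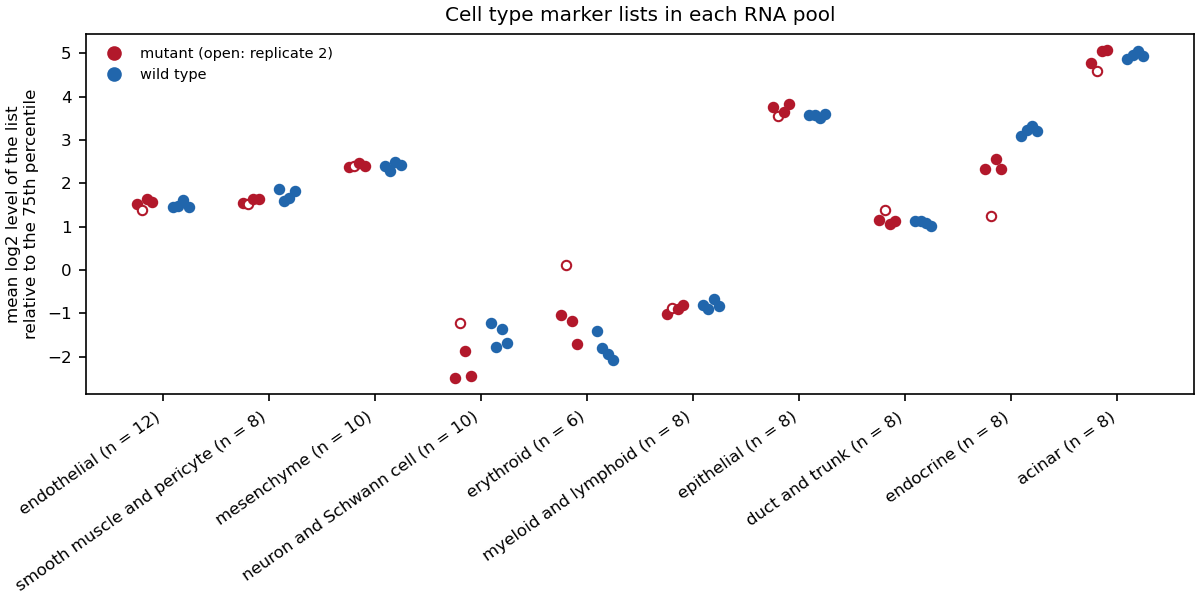
Mean log2 level of 10 cell type marker lists in each pool, relative to that array's 75th percentile, with Sox9 mutants in red left of wild type in blue and mutant replicate 2 as an open circle. The endocrine list is lower in all 4 mutant pools (1.25 to 2.57) than in wild type (3.08 to 3.33), while the endothelial, mesenchyme, epithelial and acinar lists overlap between genotypes.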

How the data were processed

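Total RNA of 8 pools was labelled with Cy3 and hybridised to one-colour Agilent arrays of design 014868. Per the file headers, the deposited scanner files are output of Agilent Feature Extraction 9.5.3.1, and their processed signal is an intensity on a linear scale, background-subtracted and detrended within the array, with low values replaced and no normalization between arrays. The authors' deposited series table is also a linear intensity and served as an alternative. The submitters' processing notes name limma, and the steps are not given in the sources used here.

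Outlier spots and control spots were left out, spots of a probe were averaged as log2 signal, and the 75th percentile of the array was subtracted. Probes well above background on at least 4 of 8 arrays (29462 of 41174), counted without regard to genotype, were kept, with the brightest probe per gene, and 19298 features remained. A current symbol was found for 15816 of them by accession, symbol or synonym in RefSeq's gene annotation (GRCm38.p6). Probe positions are those of the files, on mm8. Genotype was tested with limma 3.58.1 (lmFit, eBayes, two-sided) in R 4.3.3, with files read by data.table (version 1.17.8), and p-values were adjusted by Benjamini-Hochberg over all features, with a threshold of 0.05. The fit was tested on simulated data. Marker list means were compared by exact two-sided permutation of pools. The number of arrays limits the precision.

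The 10 genes and all lists were chosen with earlier results of these data known. By rule, the text names the 10 genes, Sox9, the called genes of each pathway list up to 4 or else the 2 with the smallest p, 16 partner and signal genes whatever their values (of which 1 is not reported here), and the 3 genes most correlated with Hes1. Called marker genes, and genes that passed without mutant replicate 2, were named after their values were seen. Replicate numbers are shared by the genotypes, but deviations of same-numbered pools correlated at 0.0167, -0.0249, 0.0563 and 0.128, so the numbers were not taken to pair the pools.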

Additional observations from a re-analysis of the deposited data

Results flagged for a closer look

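Over 52 groups of 4 values (each gene, second probe and marker list in each genotype), 6 had one pool far from the other 3, by a gap above the 95% critical value of Dixon's test. Chance flags about 1 in 20 such groups. Mutant replicate 2 was the distant pool in 5 of the 6. For Hes5 it read -2.20, above the -3.33 to -3.20 of the other mutant pools. For Id1 it read 2.29, below their 2.68 to 2.70, and for the second Id1 probe 2.34, below 2.52 to 2.55. For Id3 it read 1.76, below 1.89 to 1.90, and for the second Id2 probe 2.46, below 2.77 to 2.81. In the same Id2 probe wild-type replicate 2 read 2.80, above the 2.68 to 2.69 of the other wild-type pools. The Hes1 and Id4 levels had no such pool in either genotype.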

How the results depend on the processing

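In Sox9 mutants against wild type, Hes1 kept its direction and call in 14 of 17 planned settings (0.16 to 0.58) and Id4 in 14 of 17 (-0.95 to -0.50). The lost calls were those with normexp, with median centring and with the replicate block (Hes1 0.54, adjusted p = 0.0634; Id4 -0.56, adjusted p = 0.065). In limma, these 3 settings called 0 of the 10 genes, with 2, 1 and 4 at an unadjusted p under 0.05 in that order, and array weights called 4. In the block fit over all features 116 were called, 65 higher and 51 lower, and not every pool correlated best with its own number; the block changed no other call among the 10 genes, but ended those of Ascl2, Dtx4, Mfng, Dll3, Smad7 and Cer1 (adjusted p 0.0693 to 0.101). Of all features, 1057 were called in the reported fit, 80 with normexp (17 higher and 63 lower), 56 with median centring, 422 without a filter on dim probes, 4666 with array weights, and 2187 in the authors' table. Each left-out array moved that count, to 448, 3334, 495 and 488 without mutant replicates 1 to 4 and to 358, 388, 372 and 540 without wild-type replicates 1 to 4. Over these fits the genes called among the 10 numbered 2 to 3. Without mutant replicate 2, median centring called 3235 features and normexp 60, and normexp then called 0 of the 10 genes, with 2 at an unadjusted p under 0.05; both were added after seeing the data. Why the counts move was not tested.

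Among the 10 genes, their second probes and the marker list means, signs turned only in values that were not called. Hes7, outside these, turned from 0.07 with all arrays to a called -0.42 without mutant replicate 2. Hey1 was -0.36 with median centring, and -0.03 to 0.07 with an array left out. Id1 was 0.01 with quantile normalization, 0.02 with array weights, -0.16 to 0.00 with an array left out, and 0.03 with normexp without mutant replicate 2. Id2 was 0.09 with normexp, 0.13 with quantile normalization, 0.05 with array weights, 0.11 in the authors' table, -0.05 to 0.05 over the left-out arrays, 0.01 with median centring less mutant replicate 2 and 0.15 with normexp less that array. Id3 was 0.01 in that last fit. The second probes of Id1 and Id2 ran from -0.06 to 0.05 and from -0.04 to 0.08 with an array left out. Mean differences of marker lists turned for endothelium (-0.01 without mutant replicate 3), mesenchyme (-0.03 with quantile normalization, and down to -0.03 with an array left out) and acinar cells (-0.15 to 0.01 over the left-out arrays, 0.01 being without mutant replicate 2). With 4 pools a genotype and slide confounded with genotype, the intervals of the 8 uncalled genes bound what they can show. They span about 0.2 to 0.3 log2 units on either side of the estimate, not of 0, in 7 of them, and more in Hes5. Outside Hes5 they reached down to -0.48 in Heyl, -0.42 in Hey2, -0.41 in Hes6 and -0.39 in Id1.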
